A study of Arabidopsis thaliana with 12 samples.

Results

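The genes described here are the 48 nuclear genes for the light reactions and carbon fixation of the chloroplast: 14 for the antenna of photosystem II (LHCB), 4 for the antenna of photosystem I (LHCA), 10 for subunits of photosystem I (PSA), 10 for subunits of photosystem II (PSB), 3 for electron carriers (plastocyanin and the Rieske protein), 2 for the chloroplast ATP synthase, and 5 for Rubisco small subunits (RBCS) and Rubisco activase (RCA). They were taken by identifier from the 27371 genes of the deposited tables, and the rule for taking them uses no measured value, although the set was drawn up with earlier results of these data known. Testing needed a mean level of 1 FPKM or more, which 16677 genes of the tables reached, all 48 among them. FPKM is the number of fragments of a transcript scaled to its length and to all mapped fragments of the library, so levels can be compared between genes.

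The study asked how loss of LINC1, a lamin-like protein of the plant nucleus, alters the transcriptome of Arabidopsis thaliana with and without bacteria. Whole 14-day-old seedlings of wild type Col-0 (WT) and of linc1-1, a T-DNA insertion line that is 1 allele, were grown in long days at 23 °C on MS plates without sugar. The plants were mock treated or sprayed with Pst hrcC-, a Pseudomonas syringae pv. tomato strain that lacks a working type III secretion system, at an OD600 of 0.002 for 24 h. There were 3 libraries in each of the 4 groups, WT mock, WT Pst hrcC-, linc1-1 mock and linc1-1 Pst hrcC-, which the study calls independent repeats. Since whole seedlings were used, a lower share of green tissue and less transcript per green cell cannot be told apart in these values.

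Chloroplasts take most of their proteins from nuclear genes. Chlorophyll a/b-binding proteins of the LHCB and LHCA families collect light and pass its energy to photosystem II and photosystem I, plastocyanin carries electrons between the cytochrome b6f complex and photosystem I, and Rubisco fixes CO2 in the stroma. The genes for these proteins are known to be induced by light and by GLK transcription factors, to be gated by the circadian clock, and to be held down by signals from damaged plastids.

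LINC1 stood at 17.2 to 28.3 FPKM in the 6 WT libraries and at 2.09 to 3.76 in the 6 linc1-1 libraries, with no overlap between the genotypes. The files hold no counts, so the depth of each library is unknown. The sums of FPKM ran from 9.05e+05 to 7.04e+06 per library. WT replicate 1 stood apart from the other libraries under both treatments. In WT Pst hrcC- replicate 1, 11 of 12 circadian clock genes lay outside the range of the other 11 libraries, against 3 of 12 in WT mock replicate 1 and at most 2 in any other library. CCA1, a morning gene of the clock, was at 2.07, 0.732 and 0.662 FPKM in WT mock, 18.6, 0.827 and 0.411 in WT Pst hrcC-, 0.409, 0.555 and 0.199 in linc1-1 mock, and 0.237, 0.413 and 0.0938 in linc1-1 Pst hrcC-, each triple in the order of replicates 1, 2 and 3. TOC1, an evening gene, was at 32.3, 84.9 and 96.6 FPKM in WT mock, 5.74, 84.0 and 75.0 in WT Pst hrcC-, 62.9, 59.4 and 63.6 in linc1-1 mock, and 56.5, 58.3 and 62.3 in linc1-1 Pst hrcC-. The part of clock time or of any other property of these libraries in the levels of the photosynthesis genes was not tested. Results are therefore given with and without both WT replicate 1 libraries, a choice made with the data in view.

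Most of the 48 genes were among the most abundant transcripts of the seedlings. Ranked by mean FPKM over the 12 libraries, they took places 7 to 369 among all genes, apart from LHCB4.3 at place 6667. The median of the 48 on the scale of log2(FPKM + 1) was 10.73, 9.49 and 9.72 in WT mock replicates 1, 2 and 3, and 10.60, 9.42 and 8.96 in WT Pst hrcC-. It was 10.25, 9.84 and 10.14 in linc1-1 mock and 10.30, 10.49 and 9.87 in linc1-1 Pst hrcC-. Both WT replicate 1 libraries were therefore the highest of the 12, WT replicates 2 and 3 were the 4 lowest, and the 6 linc1-1 libraries lay between them. The pooled SD within groups was 0.57 log2 units.

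**Figure D1:**
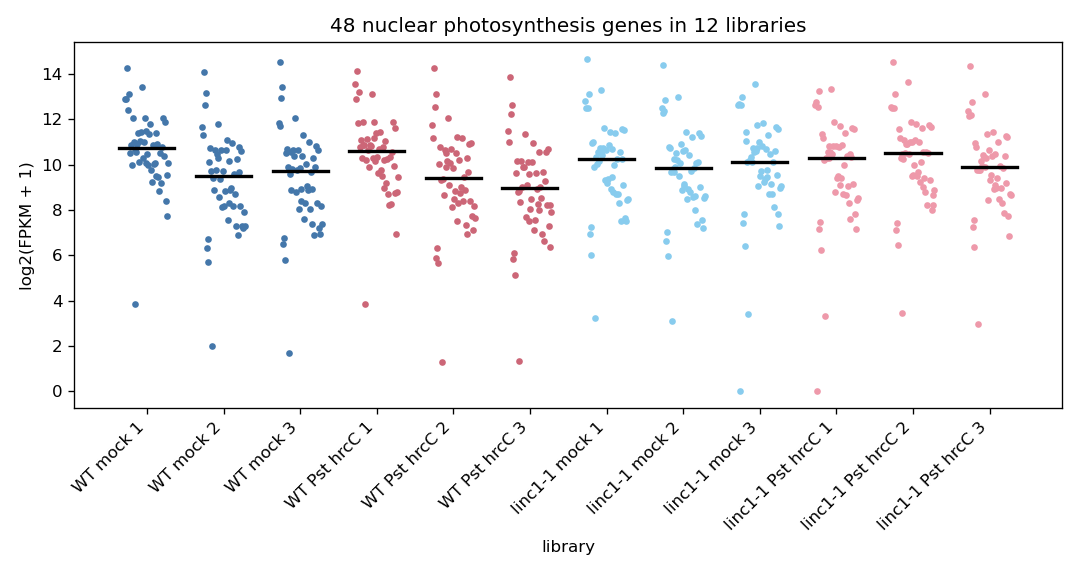
Level of each of the 48 genes, as log2(FPKM + 1), in each of the 12 libraries. Each point is 1 gene, black bars are medians over the 48 genes, and colours give the group. The medians of WT mock replicate 1 (10.73) and WT Pst hrcC- replicate 1 (10.60) lie above those of all other libraries, and WT Pst hrcC- replicate 3 has the lowest (8.96).

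This order held for most genes singly. WT replicate 1 was the highest library of its group under both treatments for 42 of the 48 genes, against 30.4% of all tested genes. The exceptions were LHCB1.3, LHCB1.4, LHCB1.5, PSBO1, PSBQ2 and PETC. All 6 linc1-1 libraries exceeded WT replicates 2 and 3 of both treatments for 31 genes, against 16.6% of all tested genes. WT Pst hrcC- replicate 3 was the lowest of the 12 libraries for 39 genes, against 13.2% of all tested genes. These counts describe an ordering of libraries found in the data, and the genes of 1 library are not independent of each other. The correlation of each gene with the median of the other 47 across the 12 libraries had a median r of 0.90, with 33 genes above 0.8, and fell below 0 for LHCB1.3 (-0.22) and LHCB1.4 (-0.22). These points share their libraries, so r is given as a description.

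**Figure D2:**
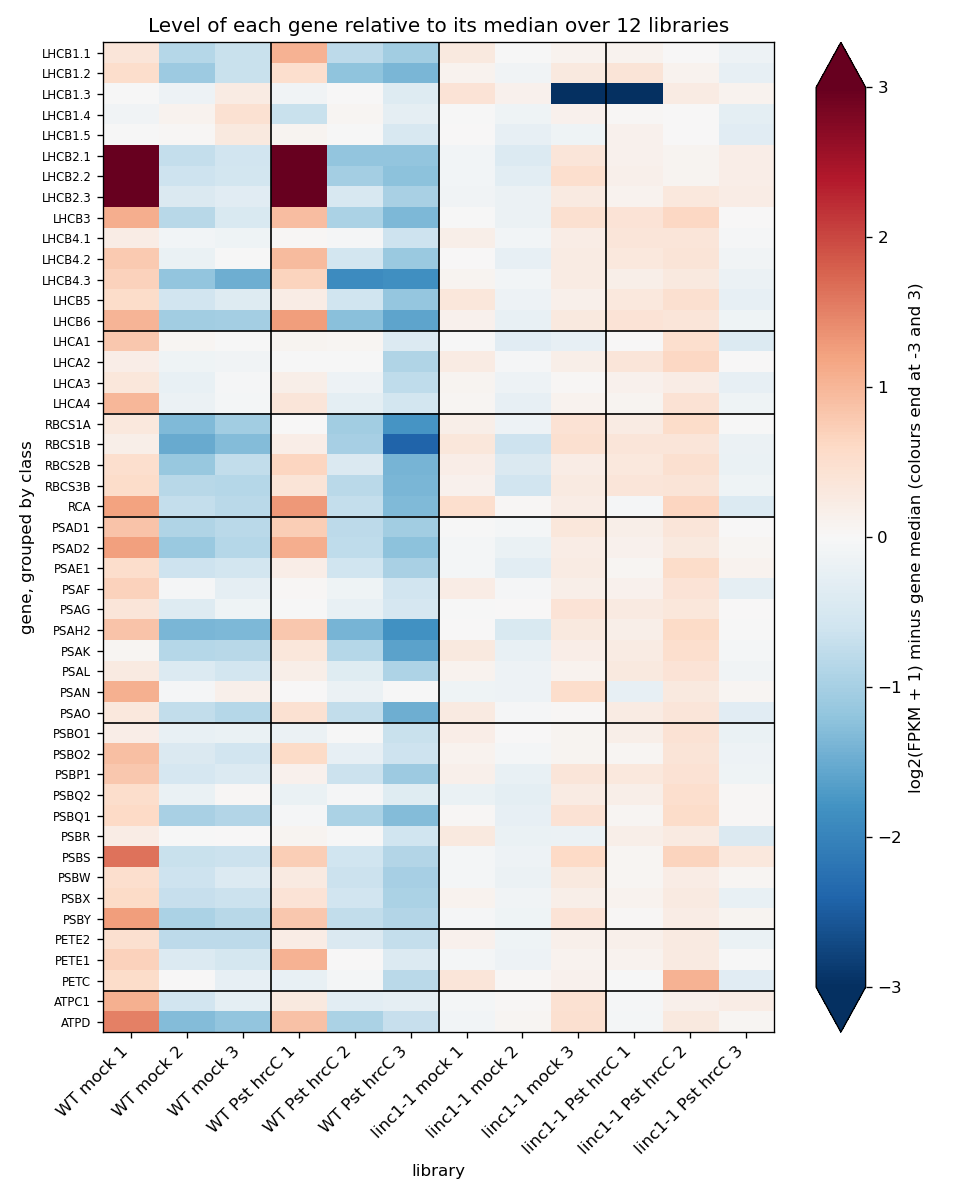
Level of each gene in each library, as log2(FPKM + 1) minus that gene's median over the 12 libraries, with genes in rows by class and libraries in columns. Red is above and blue below the gene's median, and the colours end at 3 units. The first and the fourth column (WT replicate 1) are red for most genes and saturated for the LHCB2 genes, WT replicates 2 and 3 are blue for most, and LHCB1.3 is saturated blue in the pair of linc1-1 libraries where it is listed at 0.

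The LHCB1, LHCB2 and LHCB3 proteins build the trimeric antenna LHCII, and the families behaved differently in these libraries. The 3 LHCB2 genes had the widest range of the 48 apart from LHCB1.3, and LHCB1.5 the narrowest. The 250 bases before the annotated start of these 4 genes are printed from the TAIR10.1 genome of RefSeq, as members that moved together (the 3 LHCB2 genes) beside 1 that did not. The windows are chr2:1824481-1824730 on the minus strand, chr2:1800473-1800722 on the minus strand, chr3:10255656-10255905 on the plus strand and chr2:14523569-14523818 on the minus strand, each read 5′ to 3′ on the strand of its gene, and none overlaps another protein-coding gene. Capitals mark a G-box (CACGTG), an I-box (GATAAG), the evening element (AAAATATCT) or the CCA1 binding sites AAAAATCT and AACAATCT, searched on both strands.
LHCB2.1: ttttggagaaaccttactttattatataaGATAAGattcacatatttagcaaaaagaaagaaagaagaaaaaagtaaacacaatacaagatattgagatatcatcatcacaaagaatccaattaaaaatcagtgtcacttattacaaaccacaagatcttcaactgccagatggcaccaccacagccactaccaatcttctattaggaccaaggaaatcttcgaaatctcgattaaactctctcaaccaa
LHCB2.2: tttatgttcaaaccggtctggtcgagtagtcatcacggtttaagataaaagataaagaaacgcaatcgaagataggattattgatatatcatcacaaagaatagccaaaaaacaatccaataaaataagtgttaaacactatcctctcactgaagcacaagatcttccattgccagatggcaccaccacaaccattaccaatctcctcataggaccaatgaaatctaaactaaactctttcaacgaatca
LHCB2.3: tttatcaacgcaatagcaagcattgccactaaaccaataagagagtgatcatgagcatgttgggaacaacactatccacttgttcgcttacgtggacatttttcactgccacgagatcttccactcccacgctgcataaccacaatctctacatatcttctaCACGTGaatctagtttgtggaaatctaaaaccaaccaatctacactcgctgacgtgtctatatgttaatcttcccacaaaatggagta
LHCB1.5: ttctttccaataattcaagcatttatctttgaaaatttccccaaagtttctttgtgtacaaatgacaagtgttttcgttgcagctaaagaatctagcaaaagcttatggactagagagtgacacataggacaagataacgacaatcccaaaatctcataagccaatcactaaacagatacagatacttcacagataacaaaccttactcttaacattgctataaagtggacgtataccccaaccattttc

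LHCB2.1 held 1 I-box and LHCB2.3 held 1 G-box, and no letters of these 5 motifs were found in the windows of LHCB2.2 and LHCB1.5. A TATA box (TATAAA, searched on the strand of the gene and left in lower case) started at position -31 from the annotated start in LHCB1.5 and was not found in the 3 LHCB2 windows, and 13 of the 48 windows (27.1%) and 32.9% of all windows held one. Over windows of the same length before 27443 nuclear protein-coding genes, 6.49% held a G-box, 12.3% an I-box, 2.36% an evening element, 6.69% AAAAATCT and 1.83% AACAATCT. Of the 48 genes, 9 (18.8%) held a G-box, among them LHCB6, RBCS2B, PSAH2, PSBQ1 and ATPD, and 13 (27.1%) an I-box, among them RCA, PSAD1, PSAK and PETE2. The evening element was found in 1 window (ATPC1), AAAAATCT in 5 (LHCB1.1, LHCB1.4, LHCA4, PSAN and PSAO) and AACAATCT in 0. A match is a string of letters and not a shown binding site.

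LHCB2.1 (AT2G05100) was at 1439.9, 80.2 and 88.6 FPKM in WT mock, 1748, 57.2 and 57.0 in WT Pst hrcC-, 124, 99.2 and 169.8 in linc1-1 mock, and 143, 139.5 and 151 in linc1-1 Pst hrcC-. LHCB2.2 (AT2G05070) was at 1866, 104 and 109 FPKM in WT mock, 2174, 78.9 and 67.2 in WT Pst hrcC-, 150.2, 128 and 227 in linc1-1 mock, and 177, 170.2 and 185 in linc1-1 Pst hrcC-. LHCB2.3 (AT3G27690) was at 1003, 50.8 and 54.8 FPKM in WT mock, 1266, 49.2 and 34.6 in WT Pst hrcC-, 63.8, 60.9 and 83.6 in linc1-1 mock, and 74.8, 86.4 and 81.0 in linc1-1 Pst hrcC-. For all 3 genes both WT replicate 1 libraries stood far above the other 10, whose highest values were 169.8, 227 and 86.4 FPKM. Against the mean of WT replicates 2 and 3, WT replicate 1 was 17.1, 17.5 and 19.0 times as high under mock for LHCB2.1, LHCB2.2 and LHCB2.3, and 30.6, 29.8 and 30.2 times under Pst hrcC-, as ratios of FPKM within 1 genotype and treatment. The median ratio over the 48 genes was 2.32 under mock and 2.17 under Pst hrcC-, against 1.12 and 0.966 over the tested genes with a value. Within the LHCB2 family, 41.9 to 47.2% of the summed FPKM came from LHCB2.2 over the 12 libraries. LHCB2.3 gave 21.6 to 26.6% of it in the WT libraries and 17.4 to 21.8% in the linc1-1 libraries, which overlapped.

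The separate values of near-identical genes depend on how fragments were shared between them. LHCB2.1 and LHCB2.2 lie 22517 bases apart on chromosome 2, and their coding sequences are 96.6% identical, with 152 bases in a row the same. LHCB2.3, on chromosome 3, is 85.5% identical to LHCB2.1 and shares at most 38 bases in a row, and it had the same pattern over libraries. The shared stretch is printed for LHCB2.1 at chr2:1823449-1823619 (minus strand) and LHCB2.2 at chr2:1799436-1799606 (minus strand) in TAIR10.1, to show where a fragment cannot be given to 1 gene, with the identical bases in capitals.
LHCB2.1: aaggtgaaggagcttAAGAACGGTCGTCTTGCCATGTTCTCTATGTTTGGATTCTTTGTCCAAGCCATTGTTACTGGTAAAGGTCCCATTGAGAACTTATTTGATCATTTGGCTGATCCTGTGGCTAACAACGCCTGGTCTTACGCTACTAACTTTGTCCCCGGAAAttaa
LHCB2.2: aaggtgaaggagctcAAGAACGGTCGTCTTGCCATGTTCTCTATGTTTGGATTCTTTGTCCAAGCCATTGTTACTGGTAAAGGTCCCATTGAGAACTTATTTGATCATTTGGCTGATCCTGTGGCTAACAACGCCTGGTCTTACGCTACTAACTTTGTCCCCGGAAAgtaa

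LHCB1 is the main family of the antenna. LHCB1.1, LHCB1.2 and LHCB1.3 lie in a cluster on chromosome 1, with 1153 bases between LHCB1.1 and LHCB1.2 and 1915 between LHCB1.1 and LHCB1.3, and LHCB1.4 and LHCB1.5 are neighbours on chromosome 2 with 1038 bases between them. LHCB1.3 (AT1G29930, also named CAB1) was at 19281, 17440.1 and 23256 FPKM in WT mock, 18042, 19802 and 14917 in WT Pst hrcC-, 25755, 21229.7 and 0 in linc1-1 mock, and 0, 23355 and 20958 in linc1-1 Pst hrcC-. It was the most abundant of the 48 in the 10 libraries with a value, and it is listed at 0 in linc1-1 mock replicate 3 and linc1-1 Pst hrcC- replicate 1. LHCB1.1 and LHCB1.2 were within 5286 to 7148 and 4461 to 6966 FPKM in all linc1-1 libraries. A 0 in such a table can be a failed estimate, and the files do not say which it is. The coding sequence of LHCB1.3 is 96.1% identical to LHCB1.1 and 96.4% to LHCB1.2. The longest stretch in common with LHCB1.1, 119 bases, is printed for the same reason as for LHCB2, from chr1:10475357-10475505 (minus strand) and chr1:10478458-10478606 (plus strand) in TAIR10.1, with the identical bases in capitals.
LHCB1.1: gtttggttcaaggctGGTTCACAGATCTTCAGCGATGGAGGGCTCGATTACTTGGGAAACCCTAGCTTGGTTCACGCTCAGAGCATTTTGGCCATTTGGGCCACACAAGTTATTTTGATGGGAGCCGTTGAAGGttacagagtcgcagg
LHCB1.3: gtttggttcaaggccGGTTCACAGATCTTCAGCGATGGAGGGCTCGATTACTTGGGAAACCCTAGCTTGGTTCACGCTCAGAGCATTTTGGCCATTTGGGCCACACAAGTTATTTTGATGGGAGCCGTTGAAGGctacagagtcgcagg

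LHCB1.1 (AT1G29920) was at 7491, 3213 and 3669 FPKM in WT mock, 12114, 3386 and 2843 in WT Pst hrcC-, 7148, 5808 and 6267 in linc1-1 mock, and 6309, 5886 and 5286 in linc1-1 Pst hrcC-. Its highest value, in WT Pst hrcC- replicate 1, coincided with the lowest value of LHCB1.4 (AT2G34430), which was at 5358, 6254 and 7883 FPKM in WT mock, 3612, 5976 and 4821 in WT Pst hrcC-, 5749, 5286 and 6299 in linc1-1 mock, and 5899, 5784 and 4727 in linc1-1 Pst hrcC-. The ratio of LHCB1.1 to LHCB1.4 in FPKM was 1.398 and 3.35 in WT mock and WT Pst hrcC- replicate 1, 0.465 to 0.59 in WT replicates 2 and 3, and 0.995 to 1.24 in linc1-1, so the 3 sets of libraries did not overlap. LHCB1.5 (AT2G34420) was at 8797, 9040.1 and 10862 FPKM in WT mock, 9331, 8727 and 6354 in WT Pst hrcC-, 8919, 7466 and 8121 in linc1-1 mock, and 9679.6, 8920.0 and 7003 in linc1-1 Pst hrcC-. It varied least of the 48, with a highest value 1.71 times the lowest, and the 4 groups overlapped. LHCB1.2 (AT1G29910) was at 2067 to 3322 FPKM in WT replicates 2 and 3, 4461 to 6966 in linc1-1 and 7588 to 7642 in WT replicate 1.

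**Figure D3:**
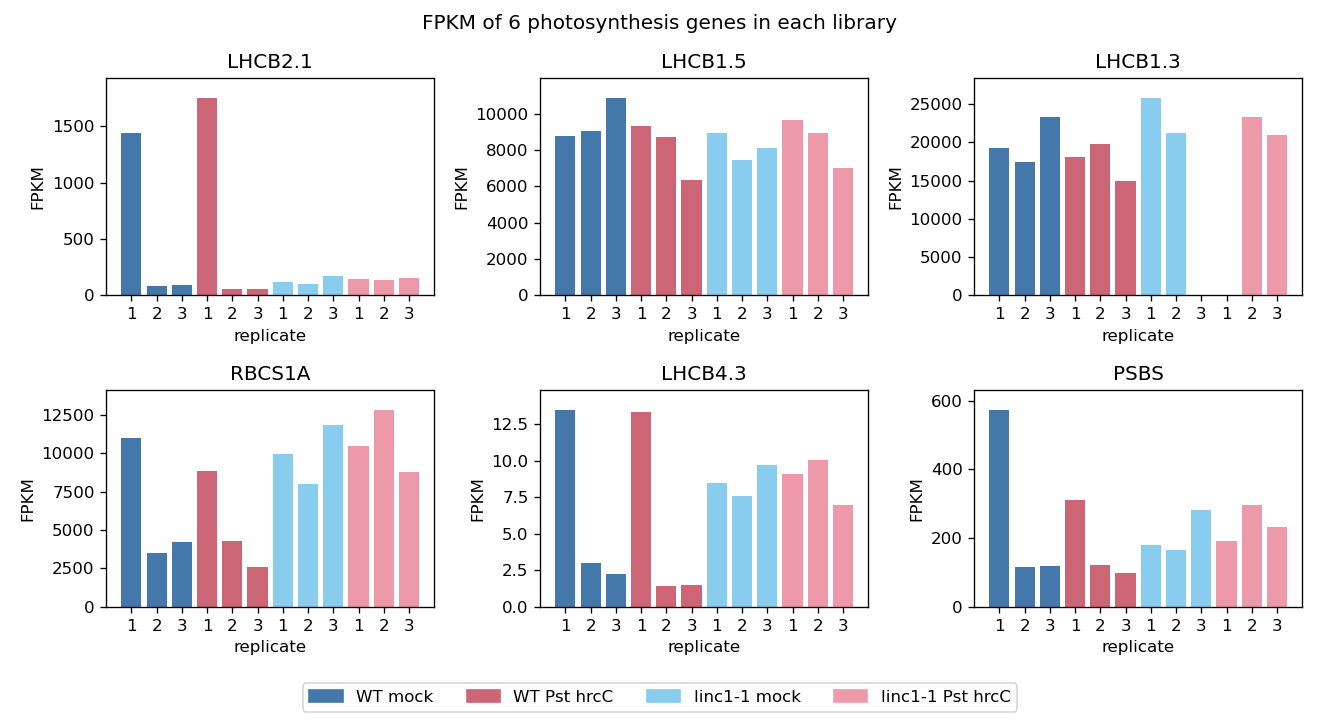
FPKM of LHCB2.1, LHCB1.5, LHCB1.3, RBCS1A, LHCB4.3 and PSBS in each library, as bars from 0 on linear axes that differ between panels. LHCB2.1 is high in both WT replicate 1 libraries (1439.9 and 1748 FPKM) and at most 169.8 in all others, LHCB1.5 is even, LHCB1.3 is listed at 0 in a pair of linc1-1 libraries, and RBCS1A and LHCB4.3 are low in WT replicates 2 and 3.

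The remaining LHCB genes encode LHCB3, the third protein of the trimers, and the monomeric antenna proteins CP29 (LHCB4), CP26 (LHCB5) and CP24 (LHCB6) between the trimers and the core. LHCB4.2 (AT3G08940) was at 1634, 829 and 948 FPKM in WT mock, 1842, 644 and 439 in WT Pst hrcC-, 952, 804 and 1118 in linc1-1 mock, and 1177, 1243 and 879 in linc1-1 Pst hrcC-. Both WT replicate 1 libraries were its highest, and the other WT and linc1-1 libraries overlapped. LHCB4.3 (AT2G40100), a rare form of CP29 also called LHCB8, was at 13.5, 2.99 and 2.28 FPKM in WT mock, 13.3, 1.43 and 1.503 in WT Pst hrcC-, 8.47, 7.56 and 9.68 in linc1-1 mock, and 9.10, 10.037 and 6.97 in linc1-1 Pst hrcC-. For LHCB4.3 both WT replicate 1 libraries were the highest, all 6 linc1-1 libraries came next, and WT replicates 2 and 3 were the lowest, with no overlap between these 3 sets. LHCB6 (AT1G15820) had the same order, with 1931 to 2266 FPKM in WT replicate 1, 819 to 1267 in linc1-1 and 321 to 471 in WT replicates 2 and 3. LHCB3 (AT5G54270) ran from 780.4 to 4199 FPKM, LHCB4.1 (AT5G01530) from 1149 to 2288 and LHCB5 (AT4G10340) from 450.1 to 1485. The most abundant form of CP29, LHCB4.1, thus varied less than LHCB4.3, with a highest value 1.99 times the lowest against 9.41 for LHCB4.3.

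The 4 LHCA genes encode the belt of antenna proteins on photosystem I and each had a smaller ratio of highest to lowest value (2.16 to 2.90) than any LHCB gene but LHCB1.4, LHCB1.5 and LHCB4.1, LHCB1.3 with its values of 0 left aside. LHCA3 (AT1G61520), the highest by mean, was at 2079.9, 1401 and 1593 FPKM in WT mock, 1848, 1469.6 and 963 in WT Pst hrcC-, 1721, 1468 and 1682 in linc1-1 mock, and 1787, 1899 and 1376 in linc1-1 Pst hrcC-, with overlap of all 4 groups. The other 3 ran from 1139 to 2665 FPKM for LHCA1 (AT3G54890), from 513 to 1474 for LHCA2 (AT3G61470) and from 963 to 2797 for LHCA4 (AT3G47470). For none of the 4 did all linc1-1 libraries exceed WT replicates 2 and 3.

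RBCS1A is the most abundant of the 4 genes for the Rubisco small subunit. RBCS1A (AT1G67090, chromosome 1) was at 11003, 3507 and 4243 FPKM in WT mock, 8865, 4287 and 2596 in WT Pst hrcC-, 9929, 7967 and 11834 in linc1-1 mock, and 10442, 12839 and 8743 in linc1-1 Pst hrcC-. WT replicates 2 and 3 held the 4 lowest values, and WT replicate 1 lay within the range of linc1-1. RBCS1B (AT5G38430) was at 1240.3, 383 and 440.0 FPKM in WT mock, 1259.7, 543 and 205 in WT Pst hrcC-, 1371, 711 and 1530.0 in linc1-1 mock, and 1399, 1409 and 957 in linc1-1 Pst hrcC-. Its 4 lowest values were also those of WT replicates 2 and 3. It lies in a row with RBCS2B (AT5G38420) and RBCS3B (AT5G38410) on chromosome 5, and these 3 coding sequences are 96.7% to 97.3% identical, so their separate values are uncertain. RBCS2B ran from 553 to 2282 FPKM and RBCS3B from 1105 to 4221. The sum of the 4 genes depends less on how fragments were split within the family. It was 18525, 6166 and 7150.3 FPKM in WT mock, 16173, 7568 and 4458 in WT Pst hrcC-, 16148, 11683 and 18550.4 in linc1-1 mock and 17373, 20048 and 13587 in linc1-1 Pst hrcC-. RBCS1A gave 54.8 to 59.4% of this sum in the WT libraries and 60.1 to 68.2% in the linc1-1 libraries, which did not overlap. The nearest values were 59.39% (WT mock replicate 1) and 60.11% (linc1-1 Pst hrcC- replicate 1). Several family shares and ratios were looked at, and this difference was not tested.

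RCA, Rubisco activase, removes inhibitory sugar phosphates from the active site of Rubisco. RCA (AT2G39730) was at 1062, 277 and 262 FPKM in WT mock, 1137, 281 and 181 in WT Pst hrcC-, 644, 470.1 and 537 in linc1-1 mock, and 446, 717 and 345 in linc1-1 Pst hrcC-. Unlike RBCS1A, it was higher in both WT replicate 1 libraries than in every linc1-1 library.

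Of the photosystem I genes, PSAD and PSAE encode the stromal ridge where ferredoxin docks, PSAF the docking site of plastocyanin, PSAG and PSAK subunits next to the antenna, and PSAH, PSAL and PSAO the side on which LHCII binds. PSAG (AT1G55670), the highest by mean, was at 3577, 2137 and 2527 FPKM in WT mock, 2779.7, 2388 and 1969 in WT Pst hrcC-, 2772, 2784 and 3700.1 in linc1-1 mock, and 3361, 3499.7 and 2788 in linc1-1 Pst hrcC-. PSAH2 (AT1G52230) was at 878, 187 and 191 FPKM in WT mock, 856, 184 and 139 in WT Pst hrcC-, 490.5, 354 and 593 in linc1-1 mock, and 550.2, 731 and 485 in linc1-1 Pst hrcC-. Both WT replicate 1 libraries exceeded linc1-1, which exceeded WT replicates 2 and 3, for PSAH2, and for PSAG the linc1-1 libraries overlapped WT replicate 1. PSAD1 (AT4G02770) and PSAD2 (AT1G03130) followed PSAH2, with a summed level of 3955 to 4328 FPKM in WT replicate 1, 2073 to 2807 in linc1-1 and 1034 to 1283 in WT replicates 2 and 3. The other 6 ran over the 12 libraries from 356 to 1018 FPKM for PSAE1 (AT4G28750), 1092 to 2602 for PSAF (AT1G31330), 185 to 807 for PSAK (AT1G30380), 798 to 2034 for PSAL (AT4G12800), 414 to 1030.0 for PSAN (AT5G64040) and 308 to 1165 for PSAO (AT1G08380).

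Of the photosystem II genes, PSBO, PSBP and PSBQ encode the extrinsic proteins of the oxygen-evolving complex, PSBS the protein that switches on the dissipation of excess light as heat, and PSBR, PSBW, PSBX and PSBY small subunits. PSBX (AT2G06520), the highest by mean, was at 4285, 1775 and 1827 FPKM in WT mock, 3802, 1925 and 1493 in WT Pst hrcC-, 3074, 2680.3 and 3242 in linc1-1 mock, and 3109.7, 3471 and 2451 in linc1-1 Pst hrcC-. PSBP1 (AT1G06680) was at 1899, 765 and 817 FPKM in WT mock, 1197, 698 and 509.5 in WT Pst hrcC-, 1219.9, 933 and 1401 in linc1-1 mock, and 1349, 1483 and 994 in linc1-1 Pst hrcC-. PSBS (AT1G44575) was at 574, 117 and 118 FPKM in WT mock, 309.5, 122 and 99.6 in WT Pst hrcC-, 179, 165 and 282 in linc1-1 mock, and 191, 295 and 232 in linc1-1 Pst hrcC-. For PSBX and PSBS the WT replicate 1 libraries were above all linc1-1 libraries, and for PSBP1 linc1-1 overlapped WT replicate 1. All linc1-1 libraries were above WT replicates 2 and 3 for the 3 genes. PSBQ2 (AT4G05180) was at 690.0, 417 and 488 FPKM in WT mock, 415, 472 and 373 in WT Pst hrcC-, 419.6, 389 and 569 in linc1-1 mock, and 539, 675 and 493 in linc1-1 Pst hrcC-. PSBR (AT1G79040) was at 1452, 1224 and 1241 FPKM in WT mock, 1303, 1236 and 820.0 in WT Pst hrcC-, 1515, 1073 and 1092 in linc1-1 mock, and 1404, 1503 and 916 in linc1-1 Pst hrcC-. PSBQ2 was higher in all linc1-1 Pst hrcC- than in all WT Pst hrcC- libraries and overlapped otherwise, and for PSBR the 4 groups overlapped. PSBQ2 and PSBR were, with LHCB1.5, the most even of the 48, with the highest value 1.85 times the lowest for each. The other PSB genes ran from 1482 to 3165 FPKM for PSBO1 (AT5G66570), 253 to 727 for PSBO2 (AT3G50820), 122 to 459.7 for PSBQ1 (AT4G21280), 628 to 1770.5 for PSBW (AT2G30570) and 287 to 1328 for PSBY (AT1G67740). The major form of PSBO, PSBO1, gave 78.3 to 78.8% of the summed FPKM of the pair in WT replicate 1 and 85.3 to 88.6% in the other 10 libraries.

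Plastocyanin is encoded by PETE1 and PETE2, and the Rieske iron-sulfur protein of the cytochrome b6f complex by PETC. PETE2 (AT1G20340), the more abundant, was at 3778, 1564 and 1580.1 FPKM in WT mock, 3162, 1994 and 1641 in WT Pst hrcC-, 2944, 2486 and 3008 in linc1-1 mock, and 3019.9, 3252 and 2344 in linc1-1 Pst hrcC-. PETE1 (AT1G76100) was at 341, 157 and 145 FPKM in WT mock, 435, 211 and 158 in WT Pst hrcC-, 200.2, 189.6 and 226 in linc1-1 mock, and 227, 253 and 209 in linc1-1 Pst hrcC-. PETC (AT4G03280) was at 210.3, 145 and 120.1 FPKM in WT mock, 123, 138 and 81.6 in WT Pst hrcC-, 184, 147 and 157 in linc1-1 mock, and 141, 297 and 113 in linc1-1 Pst hrcC-. Both plastocyanin genes were lowest in WT replicates 2 and 3 of the mock group, and the highest PETC value was in linc1-1 Pst hrcC- replicate 2. ATPD (AT4G09650), the delta subunit of the ATP synthase, was at 1089.8, 155 and 168 FPKM in WT mock, 706, 197 and 236 in WT Pst hrcC-, 359, 397 and 533 in linc1-1 mock, and 369.8, 469.6 and 402 in linc1-1 Pst hrcC-. It was highest in both WT replicate 1 libraries and lowest in WT replicates 2 and 3. ATPC1 (AT4G04640), the gamma subunit, ran from 239.9 to 750.3 FPKM.

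To test the response to Pst hrcC- in WT, WT Pst hrcC- was compared with WT mock by limma on log2(FPKM + 1), with Benjamini-Hochberg adjustment over the 16677 genes. A call required an adjusted p below 0.05 together with a fold change of more than 1.5. No photosynthesis gene was called (0 of 48), where 0.180% of all tested genes were, and the lowest adjusted p among the 48 was 0.993. Before adjustment, 0 of the 48 had p below 0.05 with such a fold, against 3.26% of all genes. The median log2 fold change of the 48 was -0.23 against -0.091 over all genes. In sign 5 of the 48 were positive, against 34.0% of all genes, and 35 of the 48 after quantile normalization. This median was 0.12 after quantile normalization and ran from -0.61 (without WT Pst hrcC- replicate 1) to 0.20 (without WT mock replicate 1) when 1 library was left out, so its sign turned with single libraries. PSBP1 and PETC had the most negative values, -0.49 (SE 0.42, adjusted p = 0.993) and -0.47 (SE 0.36, adjusted p = 0.993) in limma, and PETE1 and LHCB1.1 the most positive, 0.30 (SE 0.40, adjusted p = 0.999) and 0.13 (SE 0.53, adjusted p = 1). The 3 WT Pst hrcC- libraries overlapped the 3 WT mock libraries for every one of the 48. Few genes separated at all, with 2.9% of all tested genes wholly above and 5.14% wholly below. Without both WT replicate 1 libraries the call count was again 0 (background 0.168%), with 2 libraries left in each WT group.

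The response to Pst hrcC- in linc1-1 was tested in the same fit. No gene of the 48 was called between linc1-1 Pst hrcC- and linc1-1 mock, where 0.606% of all tested genes were, and before adjustment 0 of the 48 again passed p below 0.05 with such a fold, against 3.16% of all genes. The lowest adjusted p was 1. The median log2 fold change was 0.10 (0.022 over all genes), and -0.03 after quantile normalization. With 1 library left out it ran from -0.0076 (without linc1-1 mock replicate 2) to 0.22 (without linc1-1 Pst hrcC- replicate 3), with -0.0034 without linc1-1 Pst hrcC- replicate 2 and 0.20 without linc1-1 mock replicate 3. PSBQ2 and PSAH2 had the most positive values, 0.32 (SE 0.27, adjusted p = 1) and 0.31 (SE 0.71, adjusted p = 1) in limma, and RCA and LHCB1.1 the most negative, -0.19 (SE 0.68, adjusted p = 1) and -0.14 (SE 0.53, adjusted p = 1). The treated and mock libraries overlapped for all 48. Of all tested genes, 7.45% had the treated libraries wholly above and 4.16% wholly below. When both WT replicate 1 libraries were left out of the fit, 1.31% of all genes were called in this contrast and still 0 of the 48.

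The difference between the responses of the genotypes was tested as the interaction of genotype and treatment. None of the 48 passed (0 of 48, with 0% of all genes called), and before adjustment 0 of 48 passed against 1.99% of all genes. The median was 0.33 (0.12 over all genes), -0.12 after quantile normalization, and between -0.0051 and 0.68 when 1 library was left out. PSBQ2 had the most positive difference, 0.63 (SE 0.38, adjusted p = 1) in limma, followed by LHCB4.2, 0.63 (SE 0.68, adjusted p = 1), and LHCB1.1 and PETE1 had the most negative, -0.27 (SE 0.75, adjusted p = 1) and -0.14 (SE 0.56, adjusted p = 1). Without both WT replicate 1 libraries it was 0 of 48 again, with 0% of all genes called.

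The genotypes were compared within each treatment. Between linc1-1 mock and WT mock, 0 of the 48 were called in the fit of all 12 libraries, where 0.0360% of all tested genes were. Before adjustment it was 0 of 48 against 4.61% of all genes. The median log2 fold change of the 48 was 0.17 (0.0076 over all genes), and 34 were positive, against 50.9% of all genes. With 1 library left out this median was -0.016 without WT mock replicate 2, with 23 positive, 0.0025 without WT mock replicate 3, with 24 positive, and 0.59 without WT mock replicate 1, with 43 positive. RBCS1B and RBCS1A had the most positive values, 0.94 (SE 0.64, adjusted p = 0.769) and 0.84 (SE 0.53, adjusted p = 0.743) in limma. LHCB1.3 and LHCB2.3 had the most negative, -4.60 (SE 4.12, adjusted p = 0.843) and -1.03 (SE 1.32, adjusted p = 0.893). With the 0 values of LHCB1.3 taken as missing, an alternative chosen after seeing the data, its value became 0.24, and that of LHCB2.3 became 0.38 (SE 0.19, adjusted p = 0.231) without both WT replicate 1 libraries. For 0 of the 48 did the 3 linc1-1 mock libraries all lie above the 3 WT mock libraries, against 7.08% of all tested genes, and for 0 all below, against 8.84%.

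Between linc1-1 Pst hrcC- and WT Pst hrcC-, 0 of the 48 were called, where 0.432% of all tested genes were. Before adjustment 2 of the 48 had p below 0.05 with such a fold, against 10.5% of all genes. These were RBCS1A, 2.28-fold, or 1.19 on the log2 scale (SE 0.53, adjusted p = 0.302), and PSBQ1, 1.98-fold, or 0.99 on the log2 scale (SE 0.45, adjusted p = 0.312), in limma. The median of the 48 was 0.43 (0.14 over all genes), with 43 positive against 66.0% of all genes, and 0.29 and 0.10 under size-factor scaling and quantile normalization. With 1 library left out it ran from 0.21 (without WT Pst hrcC- replicate 3) to 0.93 (without WT Pst hrcC- replicate 1). RBCS1B had the most positive value, 1.25 (SE 0.64, adjusted p = 0.364), and LHCB1.3 and LHCB2.3 the most negative, -4.47 (SE 4.12, adjusted p = 0.6) and -0.69 (SE 1.32, adjusted p = 0.818). With the 0 values taken as missing LHCB1.3 was at 0.34. The 3 linc1-1 Pst hrcC- libraries lay above the 3 WT Pst hrcC- libraries for 4 of the 48 (LHCA2, PSAG, PSBQ1 and PSBQ2), against 14.9% of all tested genes, and below them for 0, against 6.19%.

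Without both WT replicate 1 libraries, which leaves 2 libraries in each WT group, the genotype comparisons of the photosynthesis genes came out differently. In linc1-1 mock 12 of the 48 were called higher than in WT mock (6.03% of all tested genes were called higher) and 0 lower. In linc1-1 Pst hrcC- 28 of the 48 were called higher than in WT Pst hrcC- (11.4% of all tested genes) and 0 lower. The median log2 fold change of the 48 was 0.59 under mock and 0.93 under Pst hrcC-, against 0.044 and 0.13 over all genes. Of the 12 called under mock, 11 were among the 28 called under Pst hrcC-, and PETE2 was called under mock alone, a difference that was not tested. The WT libraries left are those with the lowest medians of the 48, so these counts describe linc1-1 against WT replicates 2 and 3 only. The libraries were left out with the data in view. The calls of this fit and the adjusted p values given below for it do not allow for that choice.

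The classes are given under Pst hrcC- for the fit without both WT replicate 1 libraries, where 11.4% of all tested genes were called higher. Called were 10 of 14 LHCB genes, 4 of 5 genes for Rubisco and its activase and 7 of 10 photosystem I genes. So were 6 of 10 photosystem II genes, 1 of 2 ATP synthase genes, 0 of 4 LHCA genes and 0 of 3 electron carriers. Against WT Pst hrcC- replicates 2 and 3, LHCB4.3 was higher in linc1-1 Pst hrcC- by 3.90-fold, or 1.96 on the log2 scale (SE 0.17, adjusted p = 0.000873). The left-out WT Pst hrcC- replicate 1 was at 13.3 FPKM for LHCB4.3, 856 for PSAH2 and 2266 for LHCB6, above all linc1-1 libraries. For RBCS1A, RBCS1B and PSBQ1 it lay within the range of linc1-1. RBCS1B was higher by 3.69-fold, or 1.89 on the log2 scale (SE 0.44, adjusted p = 0.0191) and RBCS1A by 3.16-fold, or 1.66 on the log2 scale (SE 0.31, adjusted p = 0.00894). PSAH2 was higher by 3.61-fold, or 1.85 on the log2 scale (SE 0.26, adjusted p = 0.00281), LHCB6 by 3.08-fold, or 1.62 on the log2 scale (SE 0.23, adjusted p = 0.00299) and PSBQ1 by 2.54-fold, or 1.34 on the log2 scale (SE 0.24, adjusted p = 0.0069), all in limma. The LHCB2 genes were called as well, LHCB2.1 with 1.32 (SE 0.20, adjusted p = 0.00403) in limma. LHCB2.2 was at 170.2 to 185 FPKM in linc1-1 Pst hrcC- against 78.9 and 67.2 in WT Pst hrcC- replicates 2 and 3. It was at 2174 in the left-out WT Pst hrcC- replicate 1. The smallest changes among the called genes were those of PSBX, 0.81 (SE 0.22, adjusted p = 0.0326), and PSAL, 0.86 (SE 0.23, adjusted p = 0.0328).

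In the same fit without both WT replicate 1 libraries, 6.03% of all tested genes were called higher under mock. The called genes of the 48 were LHCB1.1, LHCB1.2, LHCB4.3, LHCB6, RBCS1A, PSAD1, PSAD2, PSAH2, PSBQ1, PSBY, PETE2 and ATPD. Against WT mock replicates 2 and 3, LHCB4.3 was higher in linc1-1 mock by 2.63-fold, or 1.397 on the log2 scale (SE 0.17, adjusted p = 0.00404) in limma. ATPD was higher by 2.62-fold, or 1.39 on the log2 scale (SE 0.20, adjusted p = 0.00608) and RBCS1A by 2.54-fold, or 1.34 on the log2 scale (SE 0.31, adjusted p = 0.0295) in limma. PETE2 was higher by 1.78-fold, or 0.83 on the log2 scale (SE 0.21, adjusted p = 0.0392). There were 19 of the 48 called under neither treatment, among them all 4 LHCA genes, LHCB1.3, LHCB1.4, LHCB1.5, LHCB4.1, PSBO1, PSBO2, PSBR and PETC, and they held the 10 genes with the smallest ratio of highest to lowest value over the 12 libraries.

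**Figure D4:**
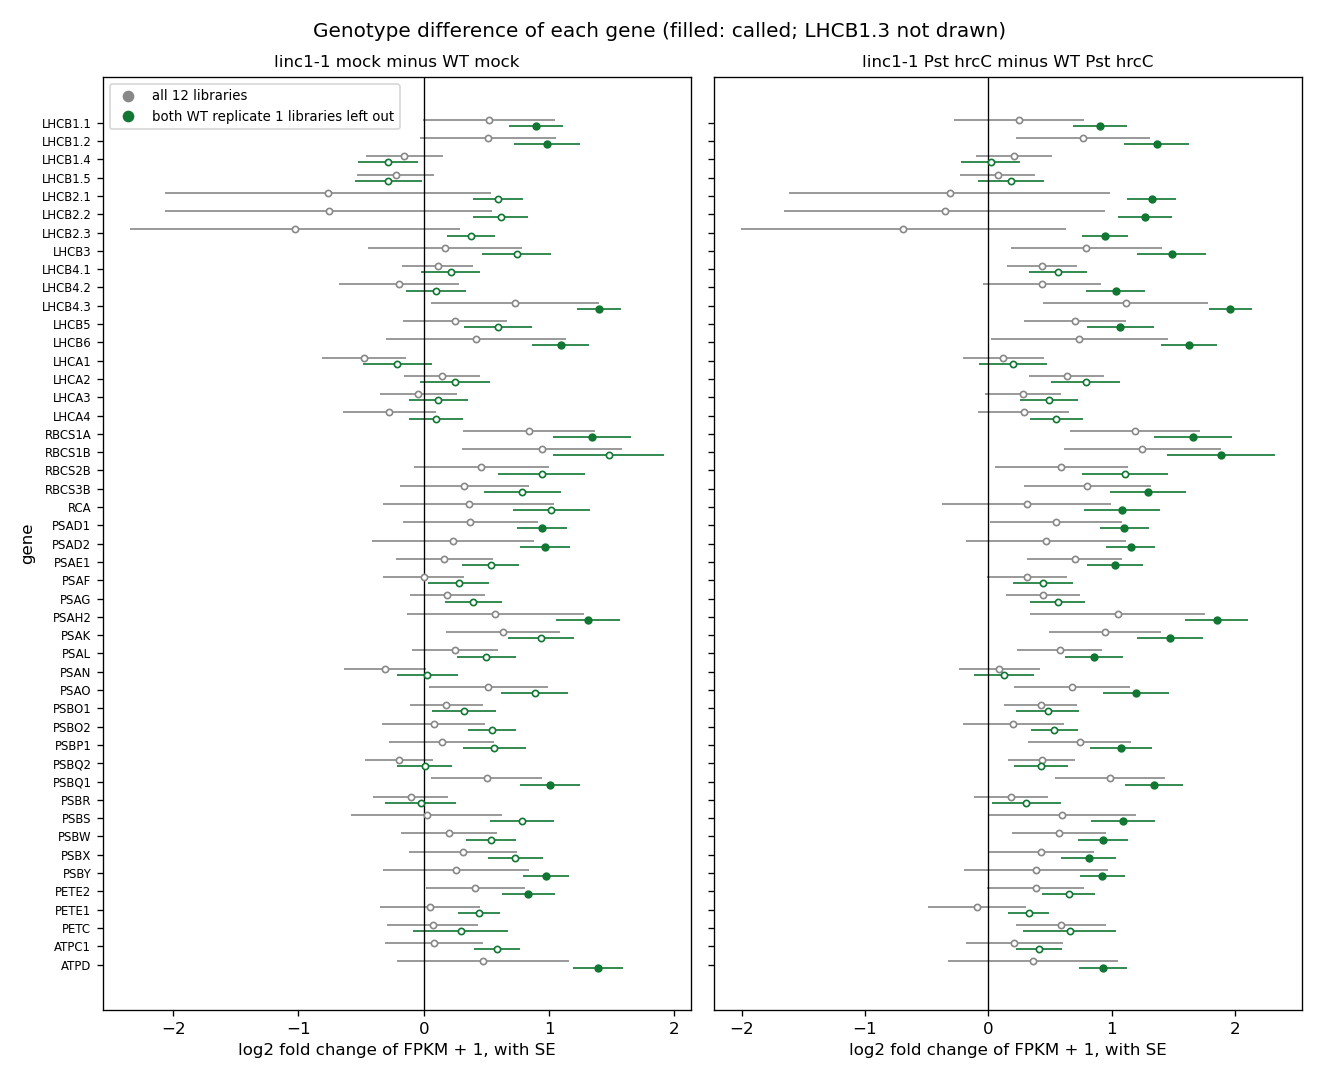
Log2 fold change of FPKM + 1 between linc1-1 and WT under mock (left) and Pst hrcC- (right) for each gene except LHCB1.3, with bars for the SE of limma. Grey points are from all 12 libraries and green points from the fit without both WT replicate 1 libraries, and filled points were called. No grey point is filled, 12 green points are filled on the left and 28 on the right, and all filled points lie to the right of 0.

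The counts without both WT replicate 1 libraries were rerun with the remaining libraries scaled, chosen after seeing the data. With size-factor scaling 9 of the 48 were called higher under mock (5.42% of all tested genes) and 24 under Pst hrcC- (8.67%). With quantile normalization it was 10 (5.95%) and 18 (8.21%). Of the 28 genes called under Pst hrcC- without scaling, 17 were called in all 3 versions, among them LHCB2.1, LHCB2.2, LHCB2.3, LHCB4.3, LHCB6, PSAH2, PSBS and ATPD, and of the 12 under mock, 7 were, among them LHCB4.3, PSAD2, PSAH2 and ATPD. With all 12 libraries kept but weighted by their fit, 9 of the 48 were called higher under mock (6.73% of all tested genes) and 5 under Pst hrcC- (5.32%). Leaving out WT Pst hrcC- replicate 1 alone gave 0 of the 48 called under Pst hrcC-, where 2.38% of all tested genes were. Before adjustment 21 of the 48 passed as higher in that fit, against 12.9% of all genes.

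Beside the 48, 95 genes were followed in 8 lists of photosynthesis, its control and other tissues or processes, and 87 of them were tested. In the fit of all 12 libraries limma called 0 of them in each of the 5 comparisons. Before adjustment, 4 had p below 0.05 with the same fold between the treatments in WT, 1 in linc1-1, 4 between the genotypes under mock, 6 under Pst hrcC- and 5 in the difference of responses. Of 14 enzymes of the Calvin cycle, 12 were higher in linc1-1 mock than in WT mock in sign, with a median log2 fold change of 0.41, and 13 in linc1-1 Pst hrcC-, with a median of 0.51, and of 18 other thylakoid subunits and carriers 13 and 15 were, with medians of 0.20 and 0.39. Of all tested genes, 50.9% and 66.0% were positive in these comparisons. Without both WT replicate 1 libraries, 8 of the 14 Calvin cycle enzymes and 5 of the 18 thylakoid genes were called higher under mock (6.03% of all tested genes), and 8 and 7 under Pst hrcC- (11.4%), with 0 lower. In the fit of all libraries the largest genotype differences under Pst hrcC- were those of TKL1, 0.74 (SE 0.43, adjusted p = 0.415), and SBPASE, 0.74 (SE 0.50, adjusted p = 0.477), among the Calvin cycle enzymes, and of the ferredoxin-NADP reductases FNR2, 0.96 (SE 0.45, adjusted p = 0.331), and FNR1, 0.94 (SE 0.49, adjusted p = 0.368), among the thylakoid genes. SBPASE, the sedoheptulose bisphosphatase of the Calvin cycle, was at 141, 44.2 and 49.2 FPKM in WT mock, 116, 45.3 and 31.2 in WT Pst hrcC-, 102, 80.8 and 109 in linc1-1 mock, and 82.6, 115 and 82.0 in linc1-1 Pst hrcC-. FD1, a leaf ferredoxin, was at 444, 72.2 and 66.0 FPKM in WT mock, 739.7, 86.7 and 78.4 in WT Pst hrcC-, 214, 198 and 236 in linc1-1 mock, and 190.3, 228 and 160.0 in linc1-1 Pst hrcC-. Both had the order of the LHCB6 gene, with WT replicate 1 above linc1-1 and linc1-1 above WT replicates 2 and 3. Among 7 genes for the insertion and phosphorylation of antenna proteins, CPSRP54, the chloroplast signal recognition particle, had the largest genotype difference under Pst hrcC-, 1.15 (SE 0.39, adjusted p = 0.204), followed by the kinase STN7, -0.66 (SE 0.43, adjusted p = 0.463), in the fit of all libraries. Without both WT replicate 1 libraries 1 of the 7 was called higher under mock (CPFTSY) and 0 under Pst hrcC-, where 6.03% and 11.4% of all tested genes were.

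Among 15 regulators of photosynthesis genes, GLK1, a transcription factor that activates them, was at 20.3, 4.33 and 4.32 FPKM in WT mock, 18.3, 7.03 and 8.29 in WT Pst hrcC-, 11.7, 11.2 and 14.1 in linc1-1 mock, and 13.9, 16.6 and 13.5 in linc1-1 Pst hrcC-. GUN4, an activator of magnesium chelatase in chlorophyll synthesis, was at 190.2, 23.5 and 29.1 FPKM in WT mock, 201, 30.7 and 31.8 in WT Pst hrcC-, 34.0, 33.3 and 47.5 in linc1-1 mock, and 32.2, 41.2 and 31.5 in linc1-1 Pst hrcC-. The GLK1 values of WT replicate 1 were above those of linc1-1, which were above those of WT replicates 2 and 3. GLK2 did not share this order. It was at 14.0, 3.76 and 5.67 FPKM in WT mock, 23.8, 7.85 and 10.2 in WT Pst hrcC-, 3.20, 4.85 and 5.21 in linc1-1 mock, and 5.34, 6.69 and 5.16 in linc1-1 Pst hrcC-. GUN4 was high in both WT replicate 1 libraries only, like the LHCB2 genes. Without both WT replicate 1 libraries GLK1 was called higher in linc1-1, with 1.32 (SE 0.15, adjusted p = 0.00338) under mock and 0.85 (SE 0.15, adjusted p = 0.00638) under Pst hrcC- in limma. PIF5, a phytochrome-interacting factor, was called lower, with -1.13 (SE 0.23, adjusted p = 0.0198) and -0.76 (SE 0.23, adjusted p = 0.0488). In all, 3 of the 15 were higher (GLK1, GNC and SIG2) and 1 lower under mock, where 6.03% and 3.82% of all tested genes were. Under Pst hrcC- 1 was higher and 3 lower (PIF5, PIF3 and CGA1), where 11.4% and 6.31% of all tested genes were. In the fit of all libraries the largest differences under Pst hrcC- were those of GLK2, -1.01 (SE 0.43, adjusted p = 0.291), and SIG5, -0.87 (SE 0.53, adjusted p = 0.431). In that fit 9 of the 15 were positive under mock and 8 under Pst hrcC-, with medians of 0.17 and 0.0077. Of all tested genes, 50.9% and 66.0% were positive.

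**Figure D5:**
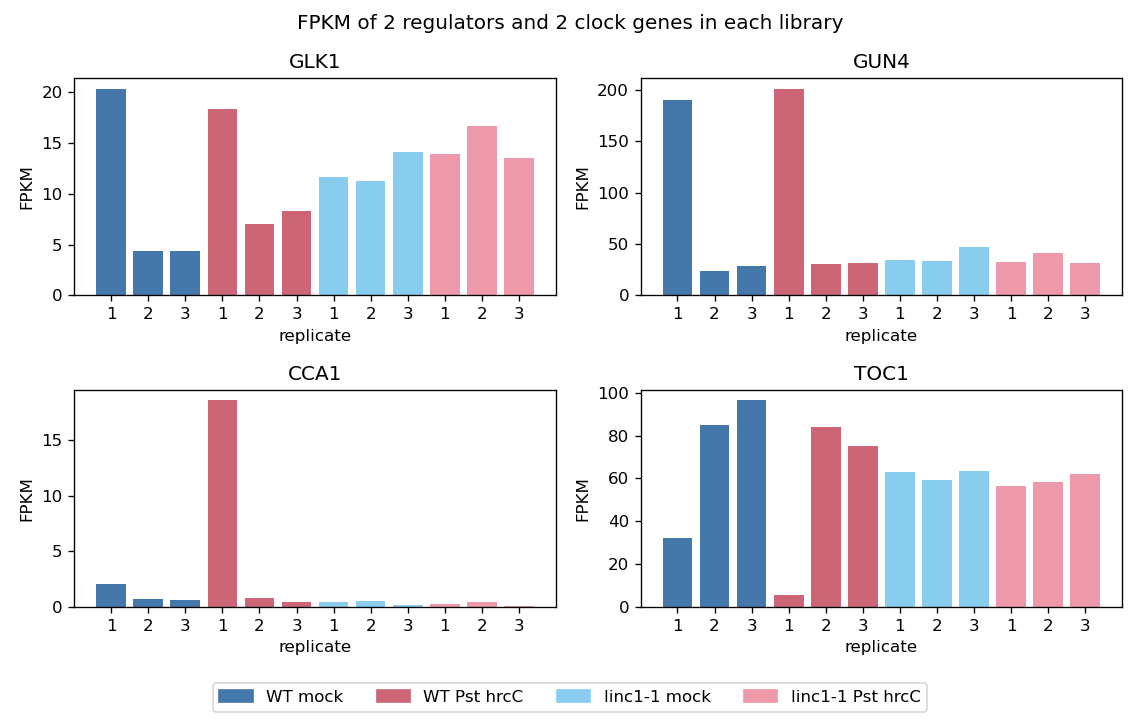
FPKM of GLK1, GUN4, CCA1 and TOC1 in each library, as bars from 0 on linear axes that differ between panels, with colours for the group. GUN4 is near 200 FPKM in both WT replicate 1 libraries and at most 47.5 in the others, and CCA1 is high (18.6 FPKM) in WT Pst hrcC- replicate 1 alone.

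Lists of light stress relatives of the antenna, chlorophyll breakdown and senescence, the circadian clock and root tissue were followed beside the photosynthesis genes. OHP, a one-helix light stress protein, was at 94.8, 15.6 and 14.1 FPKM in WT mock, 41.7, 13.6 and 10.8 in WT Pst hrcC-, 24.8, 19.8 and 33.6 in linc1-1 mock, and 18.7, 44.5 and 22.7 in linc1-1 Pst hrcC-, highest in WT mock replicate 1 and lowest in WT replicates 2 and 3. LIL3:1, another relative, was called higher under mock without both WT replicate 1 libraries, with 1.21 (SE 0.29, adjusted p = 0.032) in limma. It was the only one of the 4 called, where 6.03% of all tested genes were called higher. With every library kept it had 0.67 (SE 0.51, adjusted p = 0.52) under Pst hrcC-, and ELIP2, an early light-induced protein, -1.04 (SE 0.83, adjusted p = 0.544). Of the 9 genes of chlorophyll breakdown and senescence, 6 were tested. NAC6, a senescence regulator, was called lower in linc1-1 under both treatments without both WT replicate 1 libraries. It had -1.31 (SE 0.36, adjusted p = 0.0486) and -1.53 (SE 0.36, adjusted p = 0.0192) in limma, where 3.82% and 6.31% of all tested genes were called lower. With all 12 libraries NAC6 had -1.34 (SE 0.56, adjusted p = 0.282) under Pst hrcC-, and NYC1, a chlorophyll b reductase, 0.34 (SE 0.44, adjusted p = 0.725). SAG12, a late senescence gene, was at 0 in 10 libraries and at 0.0124 and 0.0197 FPKM in linc1-1 Pst hrcC- replicates 1 and 3. Of the 12 clock genes, 10 were tested. Without both WT replicate 1 libraries 1 was higher and 1 lower under mock, where 6.03% and 3.82% of all tested genes were. Under Pst hrcC- 2 were lower, where 6.31% of all tested genes were. PRR5 had -1.14 (SE 0.16, adjusted p = 0.00573) in limma under mock. With all 12 libraries CCA1, -1.57 (SE 0.77, adjusted p = 0.343), and ELF4, 1.48 (SE 0.59, adjusted p = 0.266), had the largest genotype differences under Pst hrcC-.

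Root genes were present in every library, with a summed level of the 16 genes of 139.5 to 254 FPKM in WT mock, 164 to 324 in WT Pst hrcC-, 124 to 218 in linc1-1 mock and 262 to 279 in linc1-1 Pst hrcC-. The root marker PYK10, a beta-glucosidase of root endoplasmic reticulum bodies, gave most of this sum. The linc1-1 Pst hrcC- libraries were all above linc1-1 mock in this sum, and the genotypes overlapped under each treatment. The root hair genes COBL9 and EXPA7 ran from 0.126 to 2.39 and from 0 to 3.18 FPKM, and 13 of the 16 root genes were tested. IRT1, an iron transporter, was the 1 root gene called without both WT replicate 1 libraries, where 6.03% of all tested genes were called higher under mock. IRT1 was higher under mock with 4.34 (SE 0.94, adjusted p = 0.0233) in limma. It was at 19.5, 0.0538 and 0.0896 FPKM in WT mock and 36.7, 12.9 and 18.4 in linc1-1 mock. The left-out WT mock replicate 1 thus lay within the range of linc1-1 mock. In the fit of all libraries CASP1, 1.14 (SE 0.64, adjusted p = 0.401), and PER64, 0.97 (SE 0.64, adjusted p = 0.469), had the largest differences under Pst hrcC-, and both belong to the Casparian strip of roots. The part of root share in the levels of the photosynthesis genes was not tested.

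The genes outside the 48 whose levels followed their median most closely over the 12 libraries were found by Pearson r on log2(FPKM + 1) among 8731 other genes that averaged 5 FPKM or more. The closest was AT1G21500, with r = 0.96, at 192, 55.6 and 56.5 FPKM in WT mock, 173, 50.8 and 38.6 in WT Pst hrcC-, 92.6, 82.7 and 118 in linc1-1 mock, and 105, 143 and 103 in linc1-1 Pst hrcC-, with WT replicate 1 above linc1-1 and linc1-1 above WT replicates 2 and 3. Next were AT1G74470 (0.96), SBPASE (0.95), AT5G28750 (0.95) and AT5G08050 (0.95), and the first 10 also held P40, AT4G13170, AT1G41880, AT1G18060 and FBA1, a chloroplast aldolase, at 0.95. These 10 were picked for the highest r among 8731 genes, over libraries whose order is set by 1 replicate number in WT, so the values only describe which levels ran together.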

How the data were processed

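RNA-seq of 12 Arabidopsis libraries was analysed from the deposited tables of FPKM values per gene. Per the labels, the authors made the FPKM values with TopHat2 (2.1.1) and Cufflinks (2.2.1) on TAIR10 after FastQC. The study's methods name other versions of both programs and a stranded poly(A) kit. The tables hold no counts, so depth is unknown and no counting interval is given. FPKM was used as deposited, with no further scaling.

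The 48 genes and the other gene lists were chosen with earlier results of these data known. Genes averaging 1 FPKM or more were tested on log2(FPKM + 1), which understates changes of low genes, with limma (3.58.1, R 4.3.3, variance trend), all 4 groups in 1 fit without a replicate block, and Benjamini-Hochberg adjustment over all tested genes. Fold changes and SE are on that scale. The fits were tested on simulated data. Alternatives changed the pseudocount (0.1), the minimum, the scaling, the groups in the fit, the library weights and the libraries left out. The study calls the 3 libraries of a group independent repeats. Over the 4 groups, same-numbered libraries deviated together in 4 of 18 pairs only (r above 0.1), so numbers were not taken to pair them. The highest r was that of WT mock and WT Pst hrcC- replicate 1 (0.448). The WT response was not tested with pairing by number within WT alone.

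Values in all libraries are given for the most abundant gene of each class, the 2 most positive and 2 most negative of each comparison, and the 3 widest and 3 narrowest ranges. Of each other list the called genes were counted and the 2 largest genotype differences under Pst hrcC- named. LHCB1.4, LHCB4.3, PSBS, PSAL, OHP and AT1G21500 were added after their values were seen. Sequences, gene spacing and motifs come from the RefSeq TAIR10.1 assembly, read with Python (3.11.15) and Biopython (1.88), with 250 bases before each annotated start. Plots used matplotlib (3.10.9).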

Additional observations from a re-analysis of the deposited data

How the results depend on the processing

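The files hold FPKM without counts, so the precision of single values is unknown, and with 3 libraries a group, of which 1 stood apart in both WT groups, WT levels are uncertain. Other settings are given with all 12 libraries unless said. The count of called photosynthesis genes stayed at 0 in all 5 comparisons with a pseudocount of 0.1 FPKM, no minimum, size-factor scaling, quantile normalization, only the compared groups in the fit, and with each library left out in turn. With the replicate number as a block over all groups it was 0 as well. Same-numbered deviations had r of -0.208 to 0.448, above 0.1 in 4 of 18 pairs. The highest was that of WT mock and WT Pst hrcC- replicate 1, and a block within WT alone was not tested. In linc1-1 mock against WT mock the count was 12 without both WT replicate 1 libraries, 9 with size-factor scaling added, 10 with quantile normalization added, and 9 with library weights. In linc1-1 Pst hrcC- against WT Pst hrcC- it was 28, 24, 18 and 5. These versions left out or weighted down libraries, and the cause was not tested further.

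Signs turned for single genes, none of them called in the unweighted fit of all 12 libraries. For LHCB1.1 the WT response (0.13) was -0.0124 with weights, -0.146 without both WT replicate 1 libraries and -0.114 with size-factor scaling added, and -0.52 to 0.52 with 1 library left out. Its difference of responses (-0.27) was 0.0108 without both, and -0.66 to 0.39 with 1 left out. For PETE1 these ranges were -0.12 to 0.69 (WT response) and -0.53 to 0.28 (difference), and for RCA in linc1-1 -0.48 to 0.0501. For LHCB1.3, with its values of 0 taken as missing, the genotype difference was 0.24 under mock and 0.34 under Pst hrcC-. With its values of 0 kept and 1 library left out, the genotype difference ran from -7.09 to 0.24 and from -6.91 to 0.34. For LHCB2.3 under mock it was 0.13 with weights, 0.38 without both WT replicate 1 libraries, 0.32 and 0.38 with size-factor scaling or quantile normalization added, and -1.76 to 0.38 with 1 left out. Under Pst hrcC- these values were 0.47, 0.95, 0.81, 0.92, and -1.63 to 0.95. There LHCB2.3 was called higher in linc1-1 in each version without both WT replicate 1 libraries, scaled or not. The cause was not tested.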
